A study of Mus musculus with 6 samples.

Results

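10 genes that mark fat cells were chosen by name: Adipoq, Retn, Lep, Plin1, Plin4, Cidec, Lipe, Fabp4, Pparg and Car3. All single-gene probe sets of these genes were taken with no filter on level, which gave 16 probe sets for 9 of the 10 genes, out of 34958 single-gene probe sets and 18194 genes on the array. Plin1 is named by no single-gene probe set in the annotation used here and was not analysed here. The tissue was whole tumour of KPC1199, a line of mouse pancreatic ductal adenocarcinoma, collected 20 days after the cells were placed under the skin of the right back. The lactation group held 3 tumours, from mice that were pregnant or had begun nursing when the cells were given, and the control group held 3 tumours from control mice killed at the same age. Each tumour was hybridised to its own array. The labels do not divide the lactation mice into pregnant and nursing animals, and strain and age are not given in the sources used here. All 6 tumours come from 1 cell line.

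White fat cells hold triglyceride in 1 large droplet coated by perilipins, break it down through a chain of lipases, and secrete hormones such as adiponectin and leptin. The nuclear receptor PPARG switches on most of this programme. The layer under mouse skin contains fat, a thin sheet of skeletal muscle and, in females, mammary gland embedded in fat. During lactation fat stores of the body are drawn on to make milk.

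The members differed in which arrays they followed, with no sharp line between the pattern of Car3 and Plin4 and that of Adipoq. Adipoq, Retn, Cidec and, less closely, Fabp4 were high in lactation replicate 2 or control replicate 2 and lowest in control replicate 1. The place of Fabp4 here rests on control replicate 1. Without that array, r with Adipoq was 0.544 for Fabp4, 0.721 for Car3 and 0.832 for Plin4. Car3 and Plin4 followed each other and were low in replicate 3 of each group. They shared their highest array, control replicate 2, with Fabp4 and Cidec. Both had a higher Pearson r with the muscle gene Acta1 than with Adipoq, a relation that rests on the replicate 3 arrays. By rank this held for Car3 (rho 0.83 and 0.60) and not for Plin4 (rho 0.71 with Acta1 and 0.77 with Adipoq). Pparg and Lipe varied little over the arrays. Lep was at the bottom of the signal range. None of the 9 genes passed the test of lactation against control in limma, where 0 of 18194 genes did, which is 0.0%, and 577 had an unadjusted p under 0.05, none of them a member.

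The promoters of Adipoq, Cidec and Retn are shown because these genes had the most similar pattern over the arrays. Each is the RefSeq window of 250 bases before to 50 bases after the start in GRCm38.p6, read in the direction of the gene. Adipoq lies at chr16:23146286-23146585 on the plus strand. Cidec, of which the first of 2 listed starts is shown, lies at chr6:113435711-113436010 on the minus strand. Retn lies at chr8:3655520-3655819 on the plus strand. Capitals mark matches to the motifs named after the sequences.
Adipoq: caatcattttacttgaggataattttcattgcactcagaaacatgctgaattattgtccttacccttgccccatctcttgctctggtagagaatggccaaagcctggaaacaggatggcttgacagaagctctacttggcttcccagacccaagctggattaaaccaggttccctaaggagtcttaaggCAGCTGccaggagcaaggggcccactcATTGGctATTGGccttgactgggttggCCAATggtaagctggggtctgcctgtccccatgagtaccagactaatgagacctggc
Cidec: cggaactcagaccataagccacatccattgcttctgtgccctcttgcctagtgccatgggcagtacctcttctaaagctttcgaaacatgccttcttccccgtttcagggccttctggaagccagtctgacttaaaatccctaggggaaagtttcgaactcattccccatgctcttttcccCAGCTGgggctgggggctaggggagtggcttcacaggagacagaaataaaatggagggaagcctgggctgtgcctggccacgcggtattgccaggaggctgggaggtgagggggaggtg
Retn: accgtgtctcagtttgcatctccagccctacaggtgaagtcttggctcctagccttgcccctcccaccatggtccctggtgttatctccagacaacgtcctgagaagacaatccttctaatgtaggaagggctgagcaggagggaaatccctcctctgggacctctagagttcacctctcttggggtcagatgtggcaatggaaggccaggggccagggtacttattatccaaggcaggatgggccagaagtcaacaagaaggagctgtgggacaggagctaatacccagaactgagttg

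6 motifs were searched on both strands in the promoters of the 8 members listed there. The full PPARG and RXR direct repeat AGGTCANAGGTCA was in none of them and in 0.0396% of all 32851 promoters. Its half-site AGGTCA, which the full repeat contains, was found in Pparg alone among the 8, and in 16.3% of all promoters. The C/EBP palindrome TTGCGCAA, the site of a factor family that acts with PPARG in fat cell formation, was found in Lep, beginning 55 bases before the start, and in 0.183% of all promoters. CCAAT was found 3 times in Adipoq, beginning 34, 27 and 7 bases before the start, and also in Plin4 and Pparg. It was present in 37.4% of all promoters. The E-box CAGCTG was found in Adipoq, Lep, Plin1 and Cidec, and in 16.3% of all promoters. TATAAA was found in Pparg and in 13.6% of all promoters. A gene with several listed starts, such as Pparg with 3, counted once if any start held the motif. The percentages count each listed window on its own, so they and the gene counts are not in like units. A match is a description of the letters in these windows. No motif was found in the Retn window, so Adipoq, Cidec and Retn shared none of the 6 in all 3 windows.

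Signals are MAS5 values, the summary of a probe set on a linear scale, with every array already scaled to a trimmed mean of 500.0. Array medians lay from 99.3 to 111.0, and their mean of 104.8 is used here as the line between dim and bright genes. Tests were made on log2(signal + 16), which understates differences of dim genes. The number of arrays limits the precision. Since whole tumours were measured, fewer cells of a type and less RNA per cell cannot be told apart.

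Of the secreted members, Adipoq encodes adiponectin, a hormone made almost only by fat cells. Its signal was 187.8, 435.9 and 177.0 in lactation replicates 1 to 3, against 64.5, 350.7 and 88.1 in control replicates 1 to 3. Replicate 2 was the highest array in both groups, and control replicate 2 exceeded 2 of the 3 lactation arrays, so the groups overlapped. The log2 difference, lactation minus control, was 0.84 with a standard error of 0.60 and a 95% interval of -0.57 to 2.26, at an unadjusted p of 0.203 and an adjusted p of 1.0 in limma. Within-group SDs on the log2 scale were 0.69 in lactation and 1.17 in control, so the difference was about the size of the spread. It became 1.51 when control replicate 2 was left out, and 0.42 when control replicate 1 was.

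Retn encodes resistin, a hormone of fat cells in mice. It had signals of 126.1, 244.2 and 124.2 in lactation, against 33.7, 166.3 and 93.8 in control. The order of the 6 arrays was the same as for Adipoq, and the groups overlapped through control replicate 2. Its log2 difference was 0.79 with a standard error of 0.49 (unadjusted p = 0.15, limma adjusted p = 1.0), and became 0.29 when control replicate 1 was left out and 1.23 when control replicate 2 was.

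Lep encodes leptin, which signals the size of fat stores to the brain. It measured 3.0, 5.9 and 3.8 in lactation and 4.3, 4.5 and 2.0 in control, all far under the array medians. Whether these values stand above background was not tested. Lactation minus control was 0.05 on the log2 scale, with a 95% interval of -0.32 to 0.42.

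**Figure D1:**
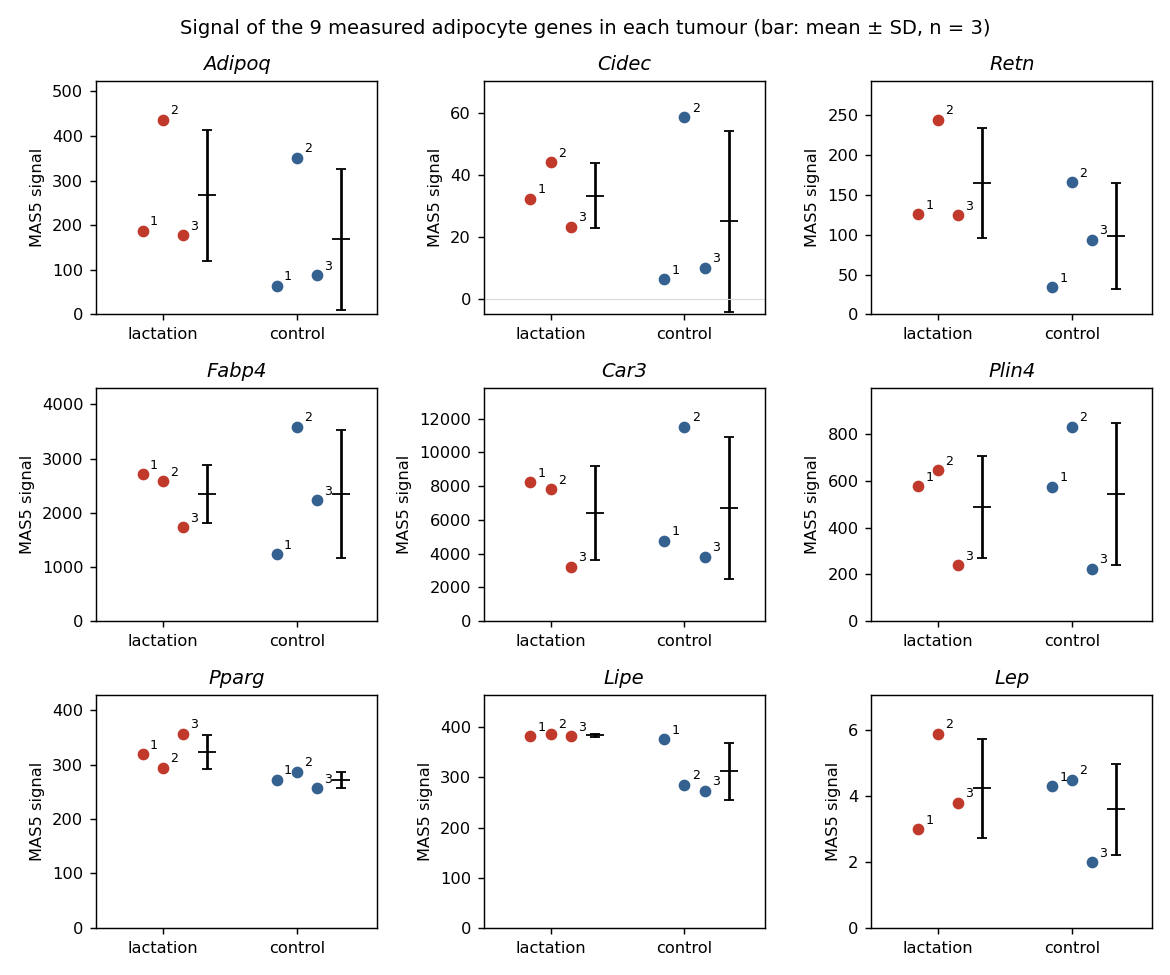
MAS5 signal (linear axes) of each measured member in the 3 lactation and 3 control tumours, numbered by replicate, with bars for mean ± SD. Adipoq and Retn are highest in replicate 2 of each group, Car3 spans 3218 to 11518, and Pparg and Lipe differ little between arrays.

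Among proteins of the lipid droplet, Cidec makes droplets fuse into the single large one of white fat. Its signal was 32.4, 44.2 and 23.3 in lactation, against 6.4, 58.6 and 10.1 in control. All 6 values lay under the array medians. Control arrays were both the highest and the lowest, and the control SD of 29.1 exceeded the control mean of 25.0. Lactation exceeded control by 0.46 on the log2 scale (standard error 0.46, unadjusted p = 0.347, limma adjusted p = 1.0). Leaving out control replicate 1 gave 0.14 and leaving out control replicate 2 gave 1.01.

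Plin4, a perilipin that coats small droplets in fat and also in muscle, measured 577.5, 646.3 and 238.7 in lactation, against 573.9, 831.0 and 224.3 in control. Replicate 3 was the low array in each group and the ranges lay almost on top of each other. Lactation minus control was -0.09 on the log2 scale, with a 95% interval of -1.32 to 1.15. With each array left out in turn it lay between -0.61 (control replicate 3 absent) and 0.35 (lactation replicate 3 absent).

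Lipe encodes hormone-sensitive lipase, which acts after the first step of fat breakdown and also works in steroid-forming and other cells. Its brightest probe set was nearly constant in lactation, at 382.1, 387.5 and 382.6, against 376.5, 285.5 and 273.9 in control. The groups did not overlap, though control replicate 1 lay close under the lowest lactation array. Lactation exceeded control by 0.30 on the log2 scale with a standard error of 0.16 (unadjusted p = 0.0942, limma adjusted p = 1.0), the lowest unadjusted p among the members. The second Lipe probe set, with 142.4, 70.5 and 176.7 in lactation and 125.8, 118.2 and 75.8 in control, overlapped between the groups.

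Fabp4 encodes a fatty acid carrier abundant in fat cells, and is also made by macrophages and capillary endothelium. Its brightest probe set gave 2717, 2588 and 1735 in lactation, against 1235, 3589 and 2228 in control. Control arrays again were highest and lowest, and the group means were 2346 ± 534 in lactation and 2351 ± 1182 in control (SD, n = 3 each). On the log2 scale the difference was 0.10, with a 95% interval of -0.76 to 0.96. Leaving out control replicate 1 gave -0.30 and leaving out control replicate 2 gave 0.47. A second bright probe set, with 1872, 1438 and 1012 in lactation and 587, 1948 and 796 in control, differed by 0.52 (standard error 0.42). It too was highest in control replicate 2 and lowest in control replicate 1. The other 2 Fabp4 probe sets were dim, at 4.06 to 50.4.

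Pparg, the nuclear receptor of fat cell formation, is also expressed in macrophages and some epithelia. It measured 319.0, 294.0 and 357.1 in lactation, against 272.0, 286.9 and 256.1 in control. The lowest lactation array lay just above the highest control array, so the groups did not overlap. The log2 difference was 0.24 with a standard error of 0.14 (unadjusted p = 0.141, limma adjusted p = 1.0) and lay from 0.17 to 0.30 when each array was left out in turn. With Lipe, Pparg made 2 of 9 members that did not overlap with lactation higher, where 4.25% of all genes did so. With lactation lower it was 0 of 9 members and 3.52% of all genes.

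Car3 encodes carbonic anhydrase 3, an enzyme abundant in fat cells and in slow muscle fibres. It had signals of 8231, 7799 and 3218 in lactation, against 4765, 11518 and 3812 in control. Replicates 1 and 2 in lactation and replicate 2 in control were the high arrays, and the groups overlapped widely. On the log2 scale the difference was -0.01, with a 95% interval of -1.16 to 1.14. It lay between -0.32 (control replicate 3 absent) and 0.47 (control replicate 2 absent). A second bright probe set, with 1818, 1062 and 518.3 in lactation and 803.9, 2509 and 622.1 in control, differed by -0.11 (standard error 0.59). A dim one, with 37.9, 29.0 and 24.8 in lactation and 5.20, 9.18 and 8.64 in control, differed by 0.97 (standard error 0.20, unadjusted p = 0.0015 in limma). Its adjusted p over all probe sets was 1.0 in limma, both bright probe sets overlapped between the groups, and so did the fourth, at 6.15 to 70.1.

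Over the 9 members 7 differences were positive and 2 negative, with a median of 0.24, where the median over all 18194 genes was -0.002 and 49.5% were positive. The members' median was 0.139 when control replicate 1 was left out and 0.468 when control replicate 2 was, and it was -0.006 over the 3 members that pass a filter at the 70th percentile of signal. The mean log2 level of the 9 genes was 8.37, 8.64 and 7.99 in lactation and 7.70, 8.68 and 7.73 in control. Control replicate 2 was the highest of the 6 arrays and control replicate 1 the lowest.

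**Figure D2:**
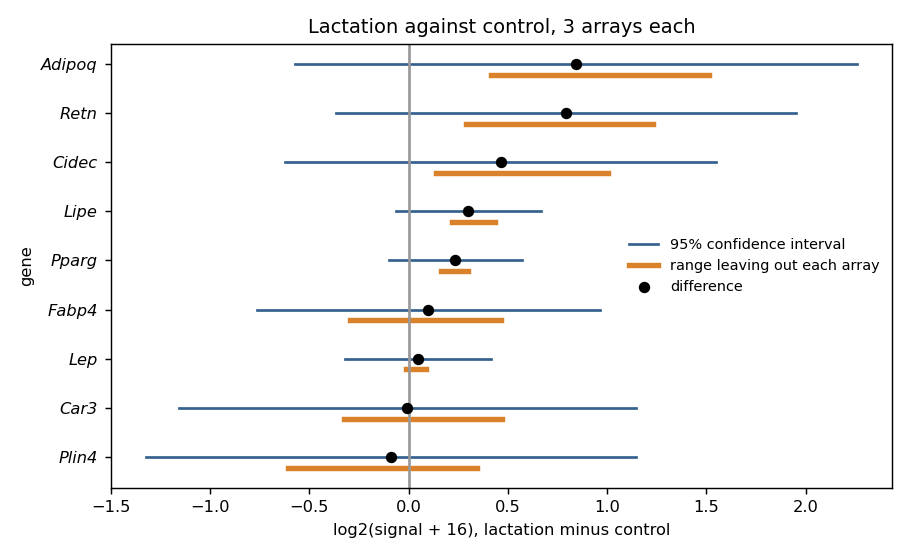
Difference in log2(signal + 16), lactation minus control, for each measured member (dot), with limma's 95% confidence interval (blue) and the range when each array is left out in turn (orange). All 9 intervals include 0, and the orange ranges of Fabp4, Lep, Car3 and Plin4 cross it.

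6 members varied widely between tumours. The highest array lay above the lowest by 2.49 on the log2 scale for Adipoq, 2.39 for Retn, 1.83 for Car3, 1.82 for Plin4, 1.73 for Cidec and 1.53 for Fabp4. Over the 11580 bright genes the median of this range was 0.44. Adipoq exceeded 98.6% of the bright genes, Retn 98.4%, Car3 97.1%, Plin4 97.0% and Fabp4 95.5%. Pparg and Lipe had ranges of 0.46 and 0.48, near the median of bright genes, and Lep had 0.28 at its very low signal.

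**Figure D3:**
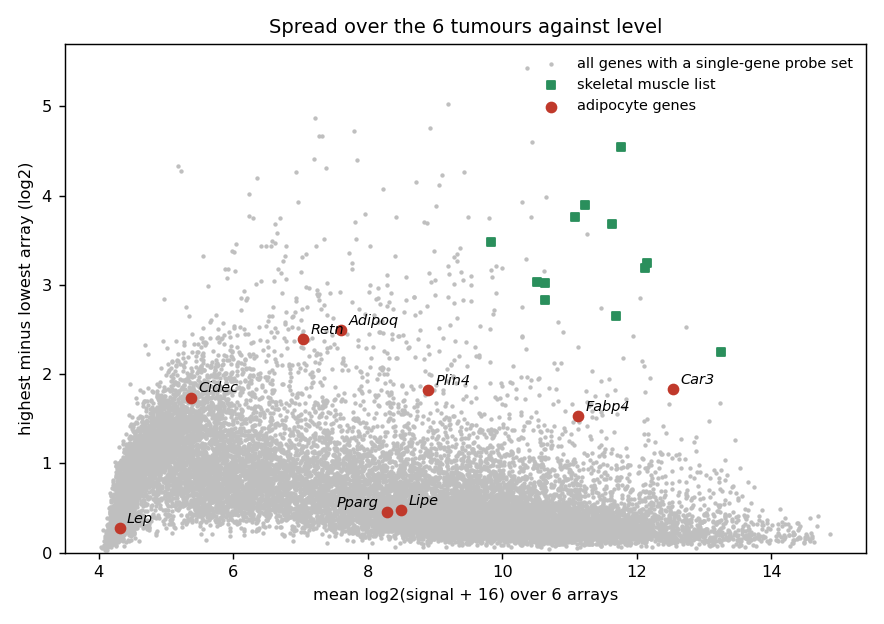
Range over the 6 arrays (log2, highest minus lowest) against mean log2(signal + 16) for all genes (grey), the 12 skeletal muscle genes (green squares) and the 9 measured members (red). Adipoq, Retn, Plin4, Car3 and Fabp4 lie above most genes of their level, Pparg and Lipe lie within the grey cloud, and the muscle genes range from 2.25 to 4.55.

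Co-variation was read against Adipoq, since adiponectin transcript comes almost only from fat cells. Over the 6 arrays Cidec correlated with Adipoq at a Pearson r of 0.96 and a Spearman rho of 0.94, with exact two-sided permutation p values of 0.0097 and 0.0167. Retn had an r of 0.93 and a rho of 1.0, with exact permutation p values of 0.0014 and 0.0028. Adjusted over the 18193 genes compared with Adipoq, each of these p values was 1.0, and 0.00278 is the smallest exact p that rho can give over 6 arrays. Without control replicate 1 and lactation replicate 2, the arrays farthest from the median of Adipoq, r over the remaining 4 arrays was 0.988 for Cidec and 0.9996 for Retn. After removing each group's mean, r was 0.96 and 0.91, so both followed Adipoq inside the groups.

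Fabp4 followed at some distance, with r = 0.76 and rho = 0.77 (exact permutation p = 0.0778 and 0.1028). Without the same pair of arrays its r was 0.65. Car3 had r = 0.68 and rho = 0.60 (exact permutation p = 0.1667 and 0.2417). Plin4 had r = 0.50 and rho = 0.77 (exact permutation p = 0.2917 and 0.1028). Without those arrays Car3 had an r of 0.76 and Plin4 one of 0.84. Lep, at its very low signal, had r = 0.63 and rho = 0.60 (exact permutation p = 0.1625 and 0.2417). Pparg had r = 0.35 and rho = 0.43 (exact permutation p = 0.5056 and 0.4194), and Lipe had r = 0.09 and rho = 0.49 (exact permutation p = 0.7764 and 0.3556). After removing group means Pparg had an r of -0.05 with Adipoq and Lipe one of -0.44, so neither followed it inside the groups. With each array left out in turn, r with Adipoq ran from 0.31 (control replicate 3 absent) to 0.832 (control replicate 1 absent) for Plin4 and from 0.361 (lactation replicate 2 absent) to 0.956 (control replicate 1 absent) for Lep. For Lipe it ran from -0.349 (control replicate 3 absent) to 0.477 (control replicate 2 absent), and for Pparg from 0.115 (control replicate 3 absent) to 0.575 (lactation replicate 3 absent). Cidec kept at least 0.935, Retn at least 0.89, Car3 at least 0.563 and Fabp4 at least 0.544. The adjusted p of each of the 8 members was 1.0. Their median r was 0.66, where the median over all genes was -0.01.

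Between other members, Car3 and Plin4 correlated with each other at r = 0.90 and rho = 0.89, more closely than either did with Adipoq. Car3 was not apart from the other genes, with r = 0.782 and rho = 0.714 to Cidec and r = 0.757 and rho = 0.829 to Fabp4, about the r of Adipoq with Fabp4. Its r to Retn was 0.491. Cidec correlated with Retn at r = 0.87 and with Fabp4 at r = 0.845. Plin4 and Retn had r = 0.21 and rho = 0.77, so their arrays stood in a similar order with unlike steps. Plin4 and Cidec had r = 0.576 and rho = 0.829. Pparg and Lipe had an r of 0.61 over the 6 arrays and 0.05 after removing group means. These pair values are descriptions over 6 arrays with no test.

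**Figure D4:**
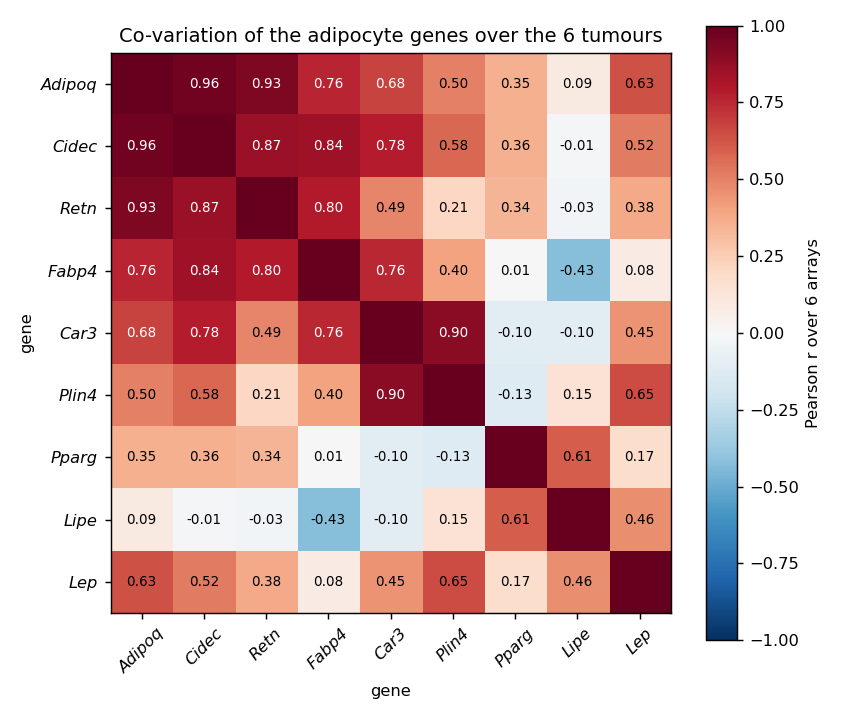
Pearson r over the 6 arrays between each pair of measured members, on log2(signal + 16) (red positive, blue negative). Adipoq, Cidec, Retn and Fabp4 have r from 0.76 to 0.96 with each other, Car3 has 0.90 with Plin4 and 0.782 and 0.757 with Cidec and Fabp4, and Pparg and Lipe have at most 0.36 with these 6.

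Skeletal muscle transcript differed widely between the tumours and is given beside Car3 and Plin4 for that reason. The 12 muscle genes summed to 106885, 34227 and 18597 signal units in lactation, against 43708, 102858 and 12420 in control. Lactation replicate 1 and control replicate 2 were the high arrays, and replicate 3 was the lowest of each group. Acta1, the actin of skeletal muscle fibres, measured 19111, 8732 and 5273 in lactation, against 13106, 18502 and 4016 in control. It was taken for comparison after its values were seen. Plin4 correlated with Acta1 at r = 0.89 and rho = 0.71 (exact permutation p = 0.0278 and 0.1361), with adjusted p values over all genes of 0.537 and 0.7474. Car3 had r = 0.81 and rho = 0.83 (exact permutation p = 0.075 and 0.0583), with adjusted p values of 0.6551 and 0.6487. Both relations rest on the replicate 3 arrays. Without lactation replicate 3 and control replicate 3, r over the other 4 arrays was 0.23 for Plin4 and 0.40 for Car3. Adipoq had r = 0.29 and rho = 0.31 with Acta1 (exact permutation p = 0.5333 and 0.5639), Cidec r = 0.46 and rho = 0.43 (0.3472 and 0.4194), and Retn r = 0.01 and rho = 0.31 (0.9819 and 0.5639). The part of muscle transcript in the levels of Car3 and Plin4 was not tested.

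**Figure D5:**
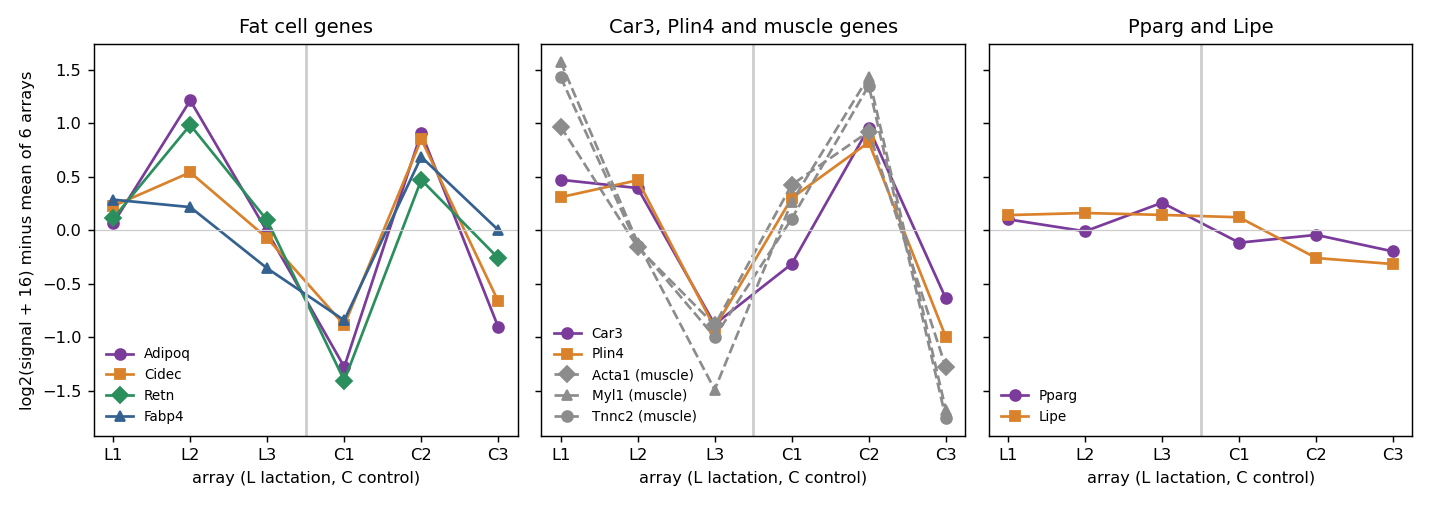
Log2(signal + 16) minus the mean of the 6 arrays, in lactation (L) and control (C) replicates 1 to 3. Adipoq, Cidec, Retn and Fabp4 (left) are lowest in C1; Car3 and Plin4 (middle) are low in L3 and C3 with 3 muscle genes (grey, dashed), and Pparg and Lipe (right) stay near 0.

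Genes of other fat cell functions did not pass the test either. In the list of the lipid droplet and lipolysis 0 of 15 genes passed, 5 differences were positive and 10 negative, and the median was -0.04. That median was -0.253 when lactation replicate 1 was left out, -0.155 when control replicate 1 was, 0.049 when lactation replicate 3 was and 0.023 when control replicate 2 was. Plin2, the droplet coat protein found in most cell types, measured 6351, 6047 and 6492 in lactation, against 6895, 7445 and 8120 in control. The groups did not overlap, and the log2 difference was -0.25 with a standard error of 0.08 (unadjusted p = 0.0186, limma adjusted p = 1.0). Pde3b, the phosphodiesterase through which insulin restrains fat breakdown, did not overlap either, at 623.5, 622.1 and 505.6 in lactation and 680.9, 649.2 and 814.1 in control, with a difference of -0.28. Bscl2, which encodes the droplet-forming protein seipin, and Plin3, a perilipin of many cells, had differences of -0.01 and 0.15. Plin2 and Pde3b were the 2 of 15 genes of that list that did not overlap with lactation lower, where 3.52% of all genes did so. With lactation higher it was 0 of 15, where 4.25% of all genes did not overlap.

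Among 13 genes of fatty acid uptake and triglyceride synthesis 0 passed, 5 differences were positive and 8 negative, with a median of -0.04. Lpl, the lipase that frees fatty acids from circulating fat, measured 2279, 1671 and 1191 in lactation, against 1221, 2766 and 1531 in control. Its highest array was control replicate 2, as for Fabp4, Car3 and Plin4. Lpl had r = 0.66 and rho = 0.66 with Acta1 (exact permutation p = 0.1792 and 0.175, adjusted p = 0.7765 and 0.7823), and r = 0.59 with Adipoq. Gpd1, which makes glycerol phosphate in fat and muscle, measured 522.8, 187.0 and 149.3 in lactation, against 244.7, 276.1 and 92.2 in control. It followed Acta1 at r = 0.93 and rho = 1.0 (exact permutation p = 0.0042 and 0.0028, adjusted p = 0.412 and 0.4211), and Adipoq at r = 0.24. Fabp5, a fatty acid carrier of epidermis and macrophages, had a difference of -0.27 and Gpam, the first enzyme of triglyceride synthesis, one of -0.04.

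The 12 transcription factors of fat cell formation other than Pparg had 1 positive and 11 negative differences, a median of -0.10, and 0 that passed. Cebpa, the partner of PPARG in fat cells, measured 476.6, 629.6 and 551.6 in lactation, against 508.0, 679.6 and 822.4 in control, a difference of -0.25 with a standard error of 0.19. Ebf1, an early factor of fat cell formation, had a difference of -0.24, Cebpd one of -0.14, Srebf1 one of -0.05 and Cebpb one of 0.01. Pparg, at 0.24, had the other sign from 11 of these 12 genes. Some of those lay near 0, as Srebf1 did. Neither Pparg nor any of the 12 had an unadjusted p under 0.05 in limma.

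Of 16 other genes of fat cell products 0 passed, with 6 positive and 10 negative differences and a median of -0.02. Mest, an imprinted gene induced in expanding fat, measured 915.9, 675.6 and 575.7 in lactation, against 866.5, 1111 and 1964 in control, a difference of -0.79 with a standard error of 0.30 (unadjusted p = 0.0345, limma adjusted p = 1.0). Nampt, an enzyme of NAD synthesis made by many cells, measured 2342, 2374 and 2443 in lactation, against 1930, 2298 and 1961 in control, a difference of 0.21 with groups that did not overlap (unadjusted p = 0.0465, limma adjusted p = 1.0). Angptl4, an inhibitor of lipoprotein lipase, had a difference of -0.21, Sncg one of 0.21 and Adipor1, an adiponectin receptor, one of -0.01. Cfd, the adipsin gene, and Acsl1 and Adrb3 of the other lists were not analysed here.

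Brown fat genes had 0 of 8 passing and a median of -0.10. Ucp1, the defining protein of brown fat, lay from 2.5 to 4.6 in all 6 arrays. Cox8b, a respiratory subunit of brown fat that striated muscle also makes, measured 1614, 254.6 and 144.9 in lactation, against 505.5, 1787 and 122.3 in control. It correlated with Acta1 at r = 0.96 and rho = 0.94 (exact permutation p = 0.0083 and 0.0167, adjusted p = 0.4567 and 0.5045), and Cox7a1 did so at r = 0.88 and rho = 0.89 (exact permutation p = 0.0333 and 0.0333, adjusted p = 0.5478 and 0.5825).

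Genes of other cell types of the site shared some high or low arrays with the members. Of the 9 mammary and milk genes 6, the 4 caseins, Lalba and Elf5, were highest in lactation replicate 2, which also had the highest Adipoq and Retn signals. The other 3 were not: Btn1a1 was 151.8 there, the lowest lactation array, Wap was 46.3 against 70.3 in control replicate 2, and Glycam1 was 6.0 against 27.1 in control replicate 2. Csn3, a casein, measured 66.3, 396.2 and 74.8 in lactation, against 53.9, 67.6 and 76.3 in control. Csn1s1 measured 2.6, 358.7 and 13.1 in lactation and 10.3, 3.1 and 5.7 in control. Only 2 of the 9 genes were bright. The lead of lactation replicate 2 was small for Elf5, at 26.9 against 19.4 in control replicate 1. Without lactation replicate 2 the difference of Adipoq was 0.45 and that of Retn 0.50, in place of 0.84 and 0.79. The summed signal of the 9 mammary and milk genes was 336, 1414 and 370 in lactation and 376, 319 and 297 in control. Only lactation replicate 2 lay above the control range. The part of these genes in the result was not tested.

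Macrophage genes, which bear on Fabp4 and Pparg, had 1 positive and 9 negative differences among 10 genes, 0 passing, and a mean log2 level of 11.56, 11.49 and 11.17 in lactation and 11.45, 11.76 and 11.79 in control. Pparg was lowest in control replicate 3, where the mean level of macrophage genes was highest by a small margin. Their summed signal was 60487 in control replicate 2 and 60454 in control replicate 3. The part of macrophages in the levels of Fabp4 and Pparg was not tested. Endothelial genes had 1 positive and 8 negative differences among 9, with mean levels of 8.93, 9.0 and 8.85 in lactation and 8.76, 9.08 and 9.34 in control. Fabp4 shared with them its lowest array, control replicate 1, and not its highest one. Ductal tumour genes had 9 positive differences of 9 with a median of 0.29 and 0 that passed, at mean levels of 12.79, 12.40 and 13.12 in lactation and 12.74, 12.24 and 12.37 in control. Their median lay between 0.157 (lactation replicate 3 absent) and 0.493 (lactation replicate 2 absent). Their lowest array was control replicate 2, the array where Fabp4, Cidec, Car3 and Plin4 were highest. Stromal genes of fat had a median difference of 0.004 over 9 genes, and keratinocyte genes one of -0.003 over 11, with summed signals of 6430 to 12636 in lactation and 6300 to 11267 in control. In neither list did a gene pass.

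The 10 bright genes outside the members whose pattern was most like that of Adipoq were Mcl1, Plekhf2, Nipa2, Cbr4, Lig4, Stx11, Zwilch, Tmem109, Zyg11b and Patl1. Their Pearson r with Adipoq over the 6 arrays ran from 0.96 to 0.98 on log2(signal + 16), and Spearman's rho was 0.94 or 1.0. Their range over the arrays was 0.21 to 0.99 on the log2 scale, against 2.49 for Adipoq. The 10 were picked for their r from 11579 bright genes, so these r values do not test whether they move with Adipoq. After adjustment over the 18193 genes compared, no correlation with Adipoq passed. An r over 0.8 was found for 2.52% of the 18193 genes compared, and Cidec, Retn and Fabp4 stood above 99.9%, 99.8% and 97.0% of the bright genes by r. The share of genes over 0.8 that unrelated genes would give over 6 arrays was not worked out.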

How the data were processed

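Total RNA of 6 tumours was labelled with biotin and hybridised to Affymetrix arrays, per the labels. The values the authors deposited are linear intensity summaries; the submitters' processing notes name MAS5, with no version. The 45101 probe sets had equal trimmed means (2% off each end) on all 6 arrays. Platform annotation named 34958 probe sets by 1 gene, 932 by several and 9211 by none; 34754 matched RefSeq by Entrez identifier and 0 symbols changed. Each of 18194 genes was represented by its brightest probe set, with no level filter, on log2(signal + 16). limma 3.58.1 in R 4.3.3 (intensity trend, group as the only term) was fitted across all genes with Benjamini-Hochberg adjustment at 0.05, and was tested on simulated data. Correlations used exact permutation over 720 orders of the arrays. Python 3.11.15, pandas 2.3.3, numpy 2.4.6 and matplotlib 3.10.9 were used.

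The members and lists were chosen with earlier results of these data known. All members were named. Of each other list the 3 genes of highest mean and the 2 bright genes of largest difference were eligible to be named, as were the 10 bright genes most like Adipoq; Ucp1 and the milk genes Lalba, Elf5, Wap and Glycam1 were added outside this rule, and Acta1 was taken as the muscle gene for correlations, all after their values were seen. Outside the members and the muscle list, only Gpd1, Lpl, Cox8b and Cox7a1 have their correlation with Acta1 given, and were picked by no rule. Labels call the tumours biological replicates. Same-numbered tumours were not treated as pairs. Their deviations from group means correlated at 0.125, -0.093 and 0.267 over bright genes. Unlike-numbered tumours ran from -0.474 (lactation replicate 1 with control replicate 3) to 0.476 (lactation replicate 1 with control replicate 2). With 3 arrays a group, these values cannot decide whether the numbers pair the tumours. Alternatives were normalization, the constant, level filters, probe set rule, variance model, array weights, replicate block and leaving out arrays.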

Additional observations from a re-analysis of the deposited data

How the results depend on the processing

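0 genes and 0 members passed an adjusted p of 0.05 in limma under each of the 17 alternatives, at 183 to 983 genes with an unadjusted p under 0.05. Adipoq, Retn, Cidec, Pparg and Lipe kept a positive difference in each alternative that tested them. The differences of the other 4 members lay near 0 and turned sign in some alternatives; the cause was not tested. For Car3 the difference was 0.017 after quantile normalization and 0.378 with the mean of its probe sets, which includes 2 dim ones, and it ran from -0.325 to 0.471 when each array was left out. For Fabp4 it was -0.055 with array weights and -0.295 to 0.468 on leaving out arrays. For Plin4 it ran from -0.606 to 0.346 and for Lep from -0.012 to 0.088. The median r of the members with Adipoq ran between 0.548 (control replicate 3 left out) and 0.777 (control replicate 1 left out). With filters at the array median and at the 70th percentile, 7 and 3 of the 9 members were tested. The median difference of the members, 0.236, was 0.17 with a constant of 64, -0.006 with the 70th percentile filter, and 0.139 to 0.468 when each array was left out. With replicate number as a block it was 0.236, since a balanced block cannot move it. The unadjusted p of Adipoq in limma was then 0.0197 in place of 0.203, and that of Retn 0.0437 in place of 0.15. Both had an adjusted p of 1.0 in limma. Whether the numbers pair the tumours is not known, as the check made on 3 arrays a group cannot decide it. On leaving out arrays the list medians ran from -0.253 to 0.049 for the lipid droplet, -0.175 to 0.18 for uptake and synthesis, -0.23 to -0.053 for transcription factors, -0.08 to 0.022 for other fat cell products, -0.153 to 0.176 for brown fat, -0.316 to 0.054 for stroma, -0.623 to 0.927 for muscle, -0.124 to 0.046 for keratinocytes, 0.069 to 0.504 for milk, -0.364 to -0.116 for macrophages, -0.281 to 0.024 for endothelium and 0.157 to 0.493 for ductal tumour genes, so the range of 8 of the 12 crosses 0. An added constant of 1 gave Cidec a difference of 0.97 and one of 64 gave 0.17. Signal near the bottom of the range limits what can be said of Lep and Cidec.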
